A study of Mus musculus with 2 samples.

Results

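The genes described here are the cyclins, the cyclin-dependent kinases (CDKs), the CDK inhibitors, the pocket proteins and the E2F transcription factors, 43 genes chosen by name from the 37074 gene names on a mouse gene expression array. They carried 102 probes, of which 89 were well above background on at least 1 of the 2 arrays of the study. Ccna1 and Ccne2 had no such probe, so that 41 of the 43 genes could be compared, all of them with signal on both arrays. The cells were mDE6, a line of mouse odontogenic epithelial cells (the epithelium that forms the tooth's enamel organ). The labels give a treatment time of 6 h for both samples. One sample received the vehicle DMSO, and the other received CHIR99021, an inhibitor of GSK-3 that stabilises β-catenin. The sample label gives the dose as 5 mM, whereas the study's methods give 5 μM and call the control cells untreated. The array was run to find genes through which the β-catenin pathway restrains the growth of these cells, so the question here was which parts of the cell cycle machinery differed at this early time. There was 1 array per condition, and both arrays lay side by side on 1 slide. Position on the slide and condition therefore cannot be told apart, and no difference given below has a replicate check or a p-value.

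Cells enter the cycle when D cyclins with Cdk4 or Cdk6, and then E cyclins with Cdk2, phosphorylate the pocket proteins Rb1, Rbl1 and Rbl2. This releases E2F factors, which drive the genes of DNA synthesis, among them A cyclins and some E2Fs. Mitosis is then started by B cyclins with Cdk1, while INK4 proteins block Cdk4 and Cdk6, and Kip proteins block CDK complexes more widely. Ccnd1 is known in many cell types as a gene that β-catenin and its TCF partners turn on. GSK-3 itself also acts on the stability of several cell cycle proteins, which an RNA array does not measure.

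All values are processed spot intensities of Cy3-labelled RNA. Signals are printed as deposited, and each ratio is CHIR99021 over vehicle after each signal was divided by the 75th percentile of its array, 486.7 for vehicle and 469.2 for CHIR99021. For a gene with several probes, the gene's ratio is that of the probe with the highest mean signal. A gene was counted as past the fold at a ratio of at least 1.5 or at most 0.66, and as meeting the criteria if its Z-score was also at least 2.0 in size; the Z-score sets the log2 ratio against the mean and SD of the 500 probes nearest in mean signal. The scanner software's error model gave log2 ratios of these genes an error between 0.20 and 0.29, which rests on its preset 10% error per signal and not on repeated cultures. Among 282 probes printed 10 times on each array, the log2 ratio had a median SD of 0.03 between spots, and among the 26 genes described here with at least 2 probes measured on both arrays it had a median SD of 0.13 between probes.

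Of 6 known β-catenin targets, 5 were tested and 4 were past the fold on the higher side after CHIR99021, beside 7.46% of all genes tested. Axin2 and Nkd1, 2 of the 4, were tested only through their signal on the CHIR99021 array. The signal of Lef1 was 239 on the vehicle array and 690.5 on the CHIR99021 array, a log2 ratio of 1.58, and that of Tcf7 was 180.3 and 270.1, a ratio of 1.55 that ran from 1.40 to 1.59 over the scalings, so that some of them put Tcf7 under the fold. Nkd1, a feedback inhibitor of Wnt signalling, was not well above background with vehicle and reached 587.8 with CHIR99021, which is at least 25.8-fold higher, at an uneven spot whose pixel SD was 0.401 of its mean (99% of bright spots in the earlier rows of that array lay under 0.261). Notum, a secreted Wnt inhibitor, read 4434 and 5569.6, a ratio of 1.30 with 1.52 at a second probe. Axin2 was at least 1.66-fold higher by the same reckoning, and Sp5 was not well above background with either treatment. Of the epithelial markers reported here, Cdh1, Epcam and Krt8 lacked signal well above background on both arrays, Krt18 had it only with vehicle and Krt5 only with CHIR99021, at least 7.24-fold higher at an uneven spot, whereas Krt14 (48.5 and 54.6) was measured on both. None of 3 ameloblast markers was well above background, and 7 of 8 mesenchymal markers were, among them Col1a1 (122887 and 116351, ratio 0.982) and Vim (52302 and 45883, ratio 0.910). Twist1, a transcription factor of mesenchyme, was the mesenchymal marker past the fold, at 647.1 and 966.9, a ratio of 1.55 that ran from 1.47 to 1.58 over the scalings. The part of this marker pattern in the ratios below was not tested. In RNA of a whole culture, fewer cells of a type and less RNA per cell cannot be told apart.

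Few of the cell cycle genes passed the fold. E2f8 was past it on the higher side, 1 of 41 genes (2.44%), beside 7.46% of the 18837 genes tested. Rbl2, Cdkn3 and Cdkn1c were past it on the lower side, 3 of 41 genes (7.32%), beside 7.82% of all genes tested. With the Z-score as well, only Cdkn3 met the criteria, on the lower side, where 3.22% of all genes did. None did on the higher side, where 2.63% of all genes did. These shares lay near or under those of all genes tested, which include genes well above background on only 1 array. Over the genes measured on both arrays, as all 41 were, the 5th percentile of the ratio was 0.639 and the 95th was 1.5. The median log2 ratio of the 41 genes was 0.07, against 0.03 over the 16886 genes measured on both arrays, and 25 of the 41 lay above a ratio of 1, as did 55.1% of those 16886 genes. For Ccna2, Ccni, Cdk2, Cdk6, E2f1 and Rbl1 the side of 1 depended on how the arrays were scaled. Just outside the fold lay Ccnl2 at 1.39 and Ccne1 at 1.37 on the higher side, and Cdkn2d at 0.676 and Cdkn1b at 0.717 on the lower side.

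**Figure D1:**
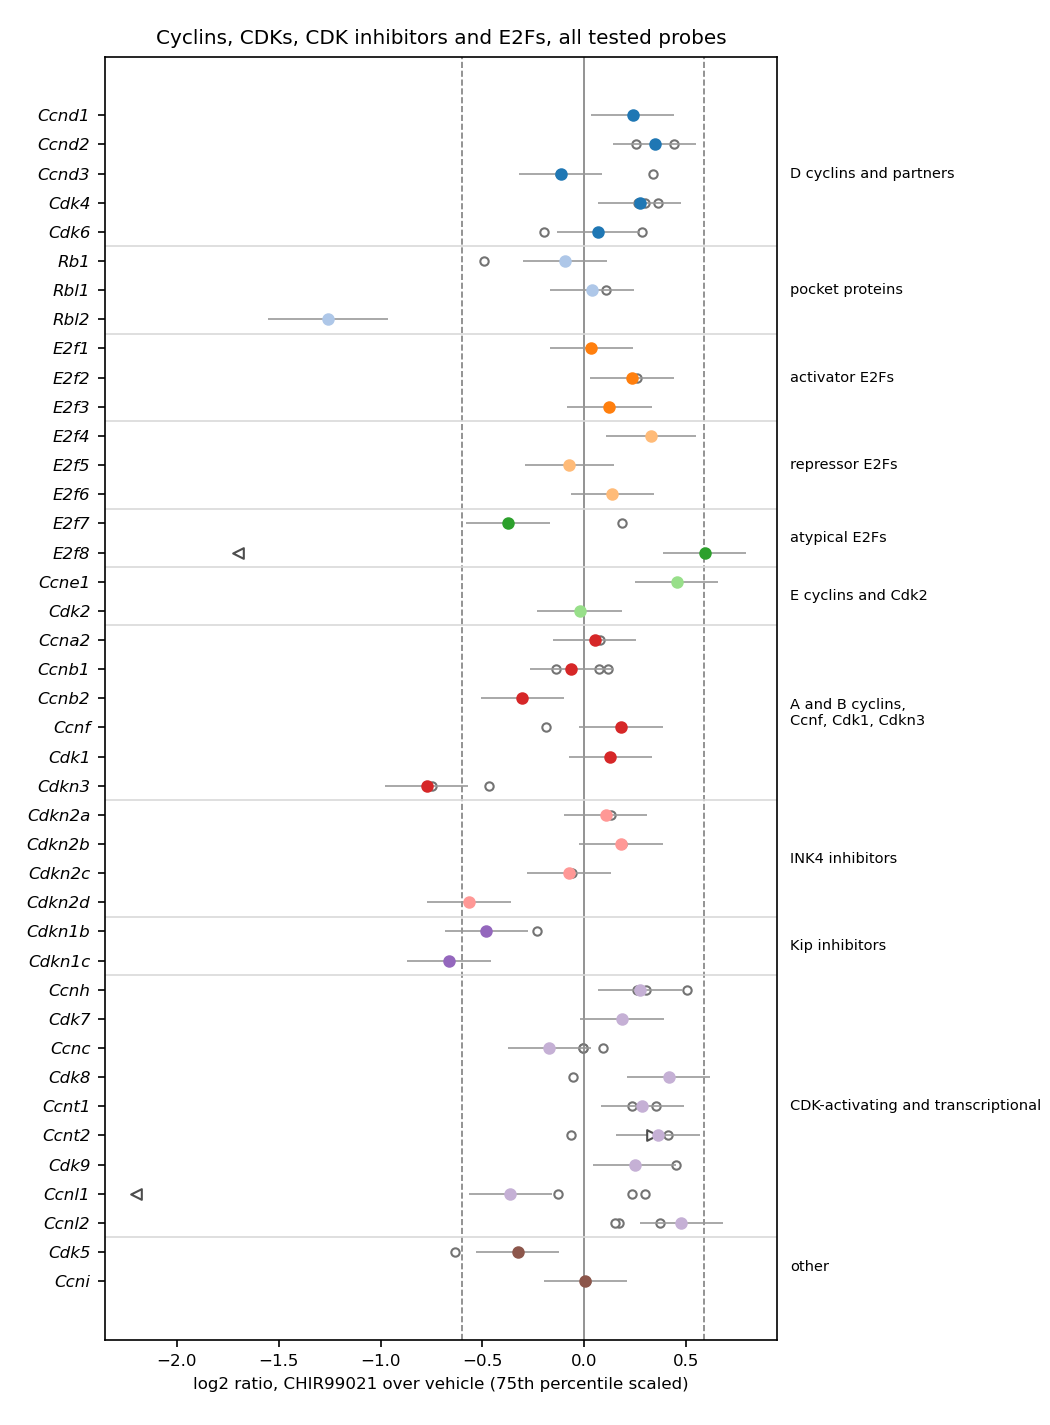
Log2 ratio of CHIR99021 over vehicle for the 41 genes measured, grouped by role. Filled points are the probe used for the gene with the error of the scanner's error model, open circles are its other probes measured on both arrays, triangles are limits from probes well above background on 1 array only, and dashed lines are ratios of 1.5 and 0.66; Rbl2, Cdkn3 and Cdkn1c lie beyond the lower line and E2f8 touches the higher one.

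The D cyclins and their kinases stayed between the folds. Ccnd1, which starts G1 progression and is a textbook β-catenin target, had a signal of 1563 with vehicle and 1775.5 with CHIR99021. The ratio of 1.18 equals 0.24 ± 0.20 on the log2 scale by the error model, and the Z-score was 0.66. Over 7 ways of scaling or background correction the ratio stayed between 1.14 and 1.20. The gene is read by a single probe at chr7:152116202-152116261 on the minus strand (mm9, the build of the deposited files). The files name the gene of a probe but not the exon, so only the first 30 of a probe's 60 bases are printed, in lower case.

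Ccnd1: ttaatctgttaggttctagtgttccgtctt

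Ccnd2, the D cyclin that works alongside it, was measured by 3 probes with ratios of 1.19, 1.27 and 1.35, and its brightest probe read 40751 and 49892. Cdk4, their catalytic partner, read 30516 and 35494 at its brightest probe, and its 4 probes had ratios from 1.20 to 1.28. All 7 probes of these genes lay above 1. Ccnd3 went the other way at its brightest probe, which read 8736 and 7765, a ratio of 0.922. A second probe that overlaps it gave 0.921, and the remaining probe, elsewhere in the gene, gave 1.26. Cdk6, the other kinase of the D cyclins, read 5463 and 5522, a ratio of 1.05 that was 0.980 at the lowest over the scalings, and its other probes were split, at 0.873 and 1.22. Between probes of the same gene the log2 SD was 0.26 for Ccnd3 and 0.24 for Cdk6, above the error model's 0.20.

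Among the pocket proteins, which hold E2Fs in check, Rbl2 had the lowest ratio of the 41 genes under the scaling used. With normexp background correction its ratio was 0.646, and that of Cdkn3 was lower at 0.610. Rbl2 (p130) is the pocket protein of resting cells. Its signal was 95.8 with vehicle and 38.6 with CHIR99021, a ratio of 0.418 and a log2 ratio of -1.26 ± 0.29. The fold was passed under each of the 7 scalings and corrections, with ratios between 0.403 and 0.646. The probe was dim, however, and the 500 probes nearest to it in signal had an SD of 0.99 on the log2 scale, so that the Z-score was -1.33. Leaving out probes dim on 1 array, or uneven spots, brought the Z-score past the limit of -2.0. A single probe reads the gene, at chr8:93647120-93647179 on the plus strand.

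Rbl2: atggtgtgaactttggtaggtacaagcctt

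Rb1, the retinoblastoma protein itself, read 536.7 and 484.4, a ratio of 0.936. A dimmer second probe of it gave 0.711. Rbl1 (p107), an E2F target as well as a partner of E2Fs, read 465.4 and 460.0, a ratio of 1.03 that was 0.988 at the lowest over the scalings.

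The activator E2Fs, which turn on the genes of S phase, were close to 1. E2f1 read 1296 and 1279 (ratio 1.02), E2f2 read 362.6 and 411.3 (1.18, with 1.20 at a second probe), and E2f3 read 266.2 and 279.3 (1.09). The direction of E2f1 flipped with the scaling, to 0.987 at the lowest. The E2Fs that repress in resting or cycling cells were also between the folds. E2f4 read 130.0 and 157.1, a ratio of 1.25, E2f5 read 162.9 and 149.2, a ratio of 0.950, and E2f6 read 1501 and 1591.5, a log2 ratio of 0.14. Of these 6 genes, E2f2 and E2f4 exceeded their error-model errors on the log2 scale (0.23 ± 0.21 and 0.33 ± 0.22), and the other four did not.

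The atypical E2Fs, E2f7 and E2f8, repress E2F targets late in S phase without a DP partner, and their probes did not point one way. The used probe of E2f8 read 417.7 with vehicle and 606.2 with CHIR99021, a ratio of 1.51 (log2 0.59 ± 0.21, Z-score 1.57). This gene stood at the edge of the fold, and quantile normalization, no scaling, normexp, the authors' table and a percentile over probes bright on both arrays each put it under 1.5, at 1.43 at the lowest. Another E2f8 probe read 88.7 with vehicle and was not well above background with CHIR99021, which is at least 3.25-fold lower. The vehicle spot of that probe was uneven, with a pixel SD of 0.386 of its mean, where 99% of bright spots in the earlier rows lay under 0.26. The remaining probe gave no signal well above background. The 2 probes that were read lie at chr7:56121860-56121919 and chr7:56134203-56134262, both on the minus strand, and are shown in this order because they disagree.

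E2f8, ratio 1.51: tgttgcagtctgtctttttgtagagtttac

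E2f8, lower with CHIR99021: ttgttactacatagtaagttccagactggt

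E2f7 read 781.8 and 581.2 at its brightest probe, a ratio of 0.771. A second, dim probe read 46.8 and 51.2, a ratio of 1.14. The log2 SD between these probes was 0.39, the highest among the 26 genes with several probes.

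**Figure D2:**
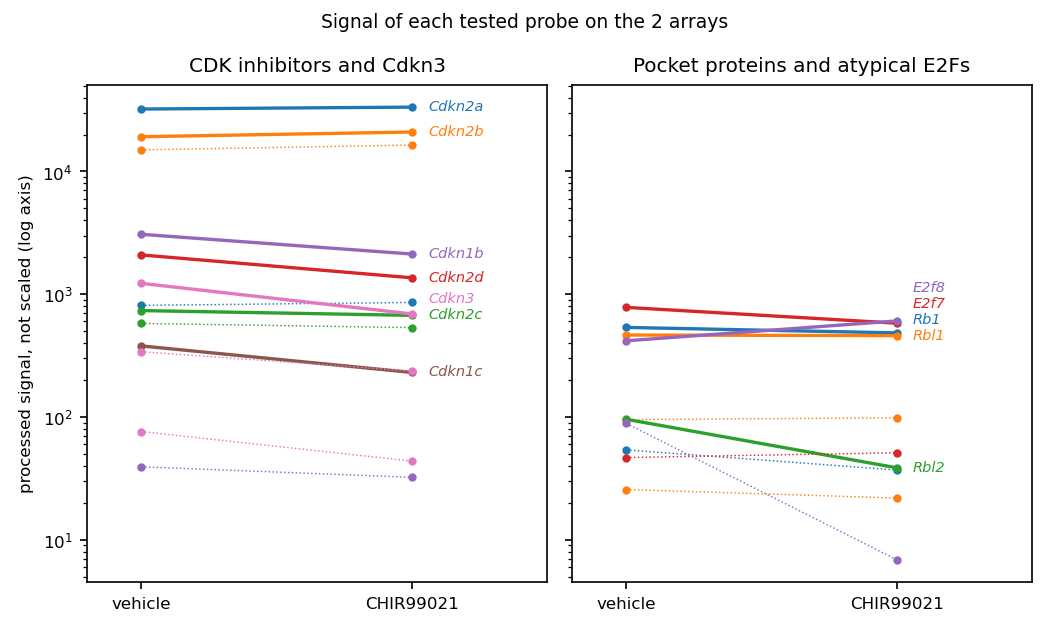
Processed signal, not scaled and on a log axis, of every tested probe on the vehicle and CHIR99021 arrays for the CDK inhibitors with Cdkn3 (left) and for the pocket proteins and atypical E2Fs (right). Solid lines are the probe used for the gene and dotted lines its other probes; heights of different probes cannot be compared, and the lines of Cdkn3, Cdkn2d, Cdkn1b, Cdkn1c and Rbl2 slope down while those of Cdkn2a and Cdkn2b are almost level.

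At the entry into S phase, Ccne1, the cyclin that activates Cdk2, read 2114 and 2789.5. The ratio of 1.37 (0.45 ± 0.20 on the log2 scale, Z-score 1.36) stayed between 1.32 and 1.40 over the scalings. Cdk2 itself read 294.8 and 279.5, a ratio of 0.984, which crossed 1 with the scaling. Ccne2 gave no signal well above background.

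The genes of S phase and mitosis did not all lie on one side of 1. Ccna2, cyclin A of cycling cells, read 2849 and 2843, a ratio of 1.04 with 1.05 at a second probe, and it was 0.994 at the lowest over the scalings. Cdk1, the mitotic kinase, read 1103 and 1161, a ratio of 1.09. Ccnb1, its main cyclin, read 2799.8 and 2582 at the brightest of 4 probes, whose ratios ran from 0.908 to 1.09, and Ccnb2 had 1 probe that read 2634 and 2055, a ratio of 0.809. Ccnf, the F-box cyclin of G2, read 1565 and 1709, a ratio of 1.13, with 0.876 at a dim second probe.

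Cdkn3, a phosphatase that removes the activating phosphate from CDKs, was the gene that met the criteria. Its brightest probe read 1227 with vehicle and 691.6 with CHIR99021, a ratio of 0.585. On the log2 scale this was -0.77 ± 0.20. The Z-score was -2.26, where the 500 nearest probes had an SD of 0.34. Its other measured probes read 340.4 and 237.1 (ratio 0.723) and 76.2 and 43.8 (ratio 0.596). All 3 thus lay below 1, 2 of them past the fold, in earlier as well as later rows of the array. Over the scalings the ratio stayed between 0.564 and 0.610. The criteria were no longer met with the mean over its probes or with a Z-score from one mean and SD for all probes, and neither fold nor criteria with the probe of highest ratio or in the earlier rows alone, both of which gave 0.723. The remaining probe gave no signal well above background. The brightest probe covers chr14:47389608-47391131 on the plus strand, where its 60 bases are spread over 1524 positions. The others lie at chr14:47386895-47386954 and chr14:47387313-47387372.

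Cdkn3, ratio 0.585: caagcaatataactatcttcatgaattccg

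Cdkn3, ratio 0.723: accagaggggagctgtcaaaatatagagtc

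Cdkn3, ratio 0.596: tctcagccttttcagtagcaaggaagtcac

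Of the CDK inhibitors proper described here, the INK4 genes lay on both sides of 1 and the Kip genes below it. In the INK4 family, which blocks Cdk4 and Cdk6, Cdkn2a read 32258 and 33422, a ratio of 1.07, and the files do not say whether its probes read p16, p19Arf or both. Cdkn2b (p15) read 19186 and 20952, a ratio of 1.13 at both of its probes, and Cdkn2c (p18) read 736.1 and 673.0, a ratio of 0.948. These 3 genes lay within their error-model errors of 1. Cdkn2d (p19) read 2091 and 1362, a ratio of 0.676 (log2 -0.57 ± 0.20, Z-score -1.88). It passed the fold under quantile normalization, no scaling, the authors' table and a percentile over probes bright on both arrays, at 0.651 at the lowest.

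Both Kip inhibitors among these genes had ratios below 1. Cdkn1b (p27), which holds cyclin E and Cdk2 inactive, read 3078 and 2127, a ratio of 0.717 (Z-score -1.85), and a dim second probe gave 0.852. Cdkn1c (p57), an imprinted inhibitor linked to cell cycle exit in development, read 379.4 and 230.9, a ratio of 0.631. Its log2 ratio was -0.66 ± 0.21 and its Z-score -1.77. With normexp background correction the ratio was 0.679, outside the fold. Its single probe lies at chr7:150644297-150644356 on the minus strand. Of the 6 INK4 and Kip genes, 4 had ratios below 1 and 2 above under the scaling used and under the 6 others, where 55.1% of all genes measured on both arrays lay above 1 under the scaling used. Cdkn2c, one of the 4, lay within its error of 1. Cdkn1a (p21), the third gene of the Kip family and not among the 43, read 494.2 and 558.9, a ratio of 1.17.

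Cdkn1c: attgctcttaaacttggtgaccagacagtc

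**Figure D3:**
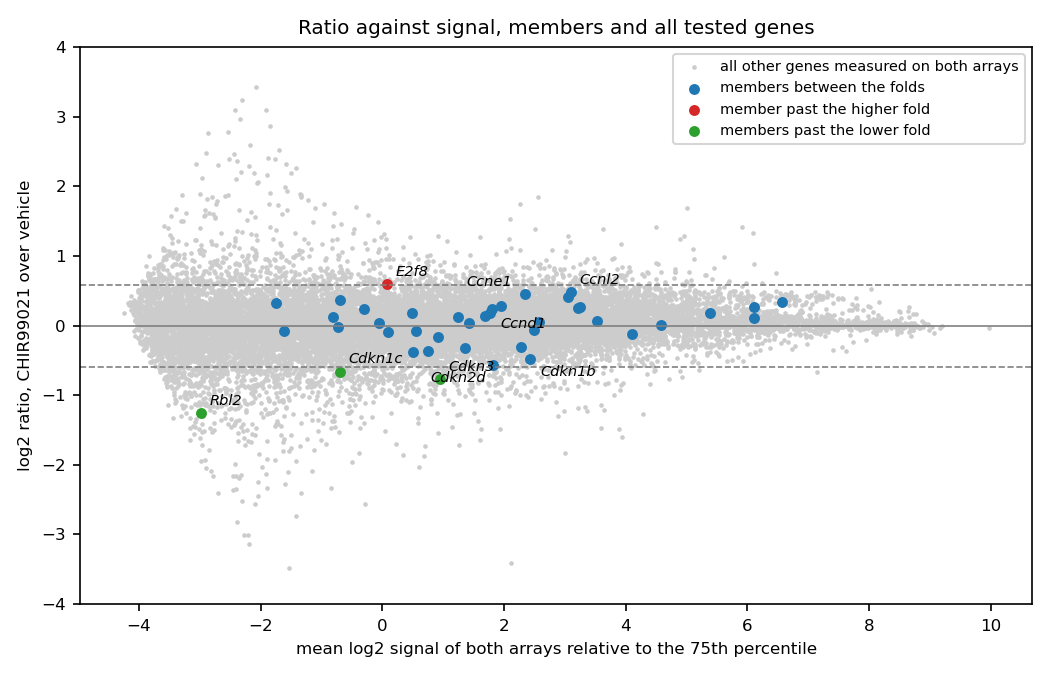
Log2 ratio of CHIR99021 over vehicle against the mean log2 signal of both arrays relative to their 75th percentile. Grey points are all other genes measured on both arrays, blue points the members between the folds, red E2f8 and green the members past the lower fold; the grey cloud widens at low signal, where Rbl2 lies, and dashed lines are ratios of 1.5 and 0.66.

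The kinases and cyclins that phosphorylate CDKs or RNA polymerase II lay above 1 in 7 of 9 genes, beside 55.1% of all genes measured on both arrays, and none passed the fold. Ccnh and Cdk7 form the CDK-activating kinase. Ccnh had 4 probes with ratios from 1.20 to 1.42 and read 4206 and 4898 at the brightest, and Cdk7 read 640.1 and 701.2, a ratio of 1.14. Ccnt1, Ccnt2 and Cdk9 form P-TEFb, which releases paused polymerase. Ccnt1 read 1697 and 1992, a ratio of 1.22, with its 3 measured probes between 1.17 and 1.28. Ccnt2 read 264.3 and 327.3, a ratio of 1.28, while another of its probes, with an uneven spot, gave 0.954. Cdk9, the kinase of the complex, read 4169 and 4766.5, a ratio of 1.19 with 1.36 at a second probe. In the kinase module of Mediator, Cdk8 read 3491 and 4485, a ratio of 1.33 with 0.963 at a second probe, while Ccnc read 971.6 and 831.8, a ratio of 0.888, with 1.07 at the highest of its other probes.

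The L cyclins, which act in splicing, parted. Ccnl2 had 4 probes with ratios from 1.11 to 1.39 and read 3533 and 4736 at the brightest. Ccnl1 read 932.2 and 698.8 at its brightest probe, a ratio of 0.778, but 0.914, 1.18 and 1.23 at the others measured on both arrays. A further Ccnl1 probe was at least 4.60-fold lower, with an uneven vehicle spot whose pixel SD was 0.426 of its mean. Cdk5, a kinase known for its roles outside the cycle, read 1395 and 1073, a ratio of 0.798, and 944.9 and 586.7 at a second probe, a ratio of 0.644. Ccni read 11623 and 11235, a ratio of 1.00 at both measured probes.

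Across the 26 genes with at least 2 probes measured on both arrays, all probes lay on the same side of 1 in 17 genes and on both sides in 9. Of the probes used, 19 lay in the earlier rows of the array and 22 in the later rows; Rbl2 and E2f8 were among the former and Cdkn3 and Cdkn1c among the latter. None of the probes used had a spot more uneven than the limit given above.

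Promoter windows, 250 bases before to 50 after the start of a gene, were taken from RefSeq (GRCm38.p6) for 33 of the 43 genes, with 38 windows. They were searched on both strands for E2F letters (TTTCCCGC, TTTGGCGC, TTTCGCGC and TTTGCCGC), for the cell cycle homology region or CHR (TTTGAA) and for TCF letters (CTTTGAA and CTTTGAT), of which the former includes the CHR letters. E2F letters stood in 7 of the 38 windows (18.4%) and in 2.26% of all 32851 windows. The 7 genes were Cdk1, Cdk2, Cdkn2a, E2f2, E2f3, E2f7 and Rbl1, and their ratios ran from 0.771 to 1.18, so that none had passed the fold. CHR letters stood in 10 windows (26.3%, against 17.9% of all). These were the windows of Rbl2, Cdkn3 and E2f8, which were past the fold, and of Ccnb2, Ccnf, Ccni, Cdk1, Cdkn2b, E2f2 and E2f3, which were not, with ratios from 0.809 to 1.18. TCF letters stood in 3 windows (7.89%, against 8.65%), those of Cdk1, Cdk4 and Cdkn3. Ccnd1 and Cdkn1c, the latter past the fold, had no window in the table. These matches describe letters and not bound sites, and no test of the shares was made.

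The windows of Rbl2, Cdkn3 and E2f8, the genes past the fold that have one, are shown with those of Cdk1, Rbl1 and E2f7, which hold E2F letters and did not pass it. Each is a stretch of 150 bases on the gene's own strand that ends before the start of the gene, with the letters searched for in capitals. They lie at chr14:46760391-46760540 (Cdkn3, plus strand), chr8:91069807-91069956 (Rbl2, plus strand), chr7:48881597-48881746 (E2f8, minus strand), chr10:69352913-69353062 (Cdk1, minus strand), chr2:157204535-157204684 (Rbl1, minus strand) and chr10:110745189-110745338 (E2f7, plus strand).

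Cdkn3: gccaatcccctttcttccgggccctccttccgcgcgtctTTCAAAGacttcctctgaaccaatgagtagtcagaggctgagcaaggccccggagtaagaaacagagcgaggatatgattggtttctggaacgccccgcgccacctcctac

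Rbl2: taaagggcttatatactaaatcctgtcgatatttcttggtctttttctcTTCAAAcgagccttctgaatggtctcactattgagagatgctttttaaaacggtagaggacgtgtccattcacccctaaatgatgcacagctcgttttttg

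E2f8: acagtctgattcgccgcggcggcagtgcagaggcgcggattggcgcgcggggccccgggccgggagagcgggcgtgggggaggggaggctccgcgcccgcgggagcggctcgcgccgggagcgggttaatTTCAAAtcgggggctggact

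Cdk1: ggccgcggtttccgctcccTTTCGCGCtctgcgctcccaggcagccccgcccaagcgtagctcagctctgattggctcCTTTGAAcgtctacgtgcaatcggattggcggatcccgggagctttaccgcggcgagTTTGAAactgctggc

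Rbl1: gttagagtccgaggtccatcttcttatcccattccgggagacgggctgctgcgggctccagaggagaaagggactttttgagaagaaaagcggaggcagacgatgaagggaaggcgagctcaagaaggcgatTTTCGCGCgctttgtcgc

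E2f7: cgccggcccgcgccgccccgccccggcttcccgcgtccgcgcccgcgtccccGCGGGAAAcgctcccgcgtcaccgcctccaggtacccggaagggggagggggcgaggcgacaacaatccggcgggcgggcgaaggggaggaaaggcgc

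The capitals in Cdkn3 are the TCF letters on the reverse strand with the CHR letters inside them. In Cdk1 the E2F letters come first, then the TCF letters with a CHR inside them, then a second CHR. In Rbl2 and E2f8 the capitals are the CHR letters alone, on the reverse strand, and in Rbl1 and E2f7 the E2F letters alone. Cdk1 and Cdkn3 thus share TCF and CHR letters, with ratios of 1.09 and 0.585.

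Of 39 further genes that act on this machinery, 38 were tested, with a median log2 ratio of 0.06. One was past the fold on the higher side and 1 on the lower, beside 7.46% and 7.82% of all genes tested. Tfdp2, a DP partner with which E2Fs bind DNA, read 439.4 with vehicle and 171.4 with CHIR99021, a ratio of 0.405 (Z-score -3.03). Its other measured probes gave 0.400 and 0.517, so that all 3 were past the fold. Tfdp1, the other DP partner, read 921.6 and 1314, a ratio of 1.48, just under the fold at its brightest probe, and 1.80 at its second. Over the scalings Tfdp2 stayed between 0.390 and 0.475 and Tfdp1 between 1.42 and 1.51. Cdc25a, the phosphatase that activates Cdk2 at the G1/S transition, read 1784 and 2595, a ratio of 1.51 with 1.46 and 1.66 at its other probes. Over the scalings it ran from 1.46 to 1.54, so that some of them put it under the fold.

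The remaining genes of these lists were between the folds at the probe used. Among the ubiquitin ligase parts, Skp2, which marks p27 for destruction, had a ratio of 1.41, and Fbxw7, which marks cyclin E, had 1.33 with 1.73 at a second probe. The vehicle spot of the Fbxw7 probe used was uneven, with a pixel SD of 0.272 of its mean. The mitotic genes Cdc20 and Foxm1 had 0.807 and 0.812, and Mybl2, an E2F target of G1/S, had 1.41. Skp2, Fbxw7, Cdc20, Foxm1 and Mybl2 were picked after their values were seen. Others of these lists lay on both sides of 1. Fbxo5 had 1.24, Wee1 1.13, and Cks2 1.12 with 0.952 at a second probe. Fzr1 had 0.952, Cdc25c 0.927, Cks1b 0.830 and Ccng2 0.693. Of the proliferation markers, Pcna read 8034 and 10538, a ratio of 1.36, while Mki67 read 4110.3 and 3392, a ratio of 0.856. The ratios of Skp2, Fbxw7, Cdc20, Foxm1, Mybl2, Pcna and Mki67 kept their side of 1 under all 7 scalings and corrections. Several of these settings only multiply every ratio by a constant, so they are a weak check for ratios this far from 1.

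**Figure D4:**
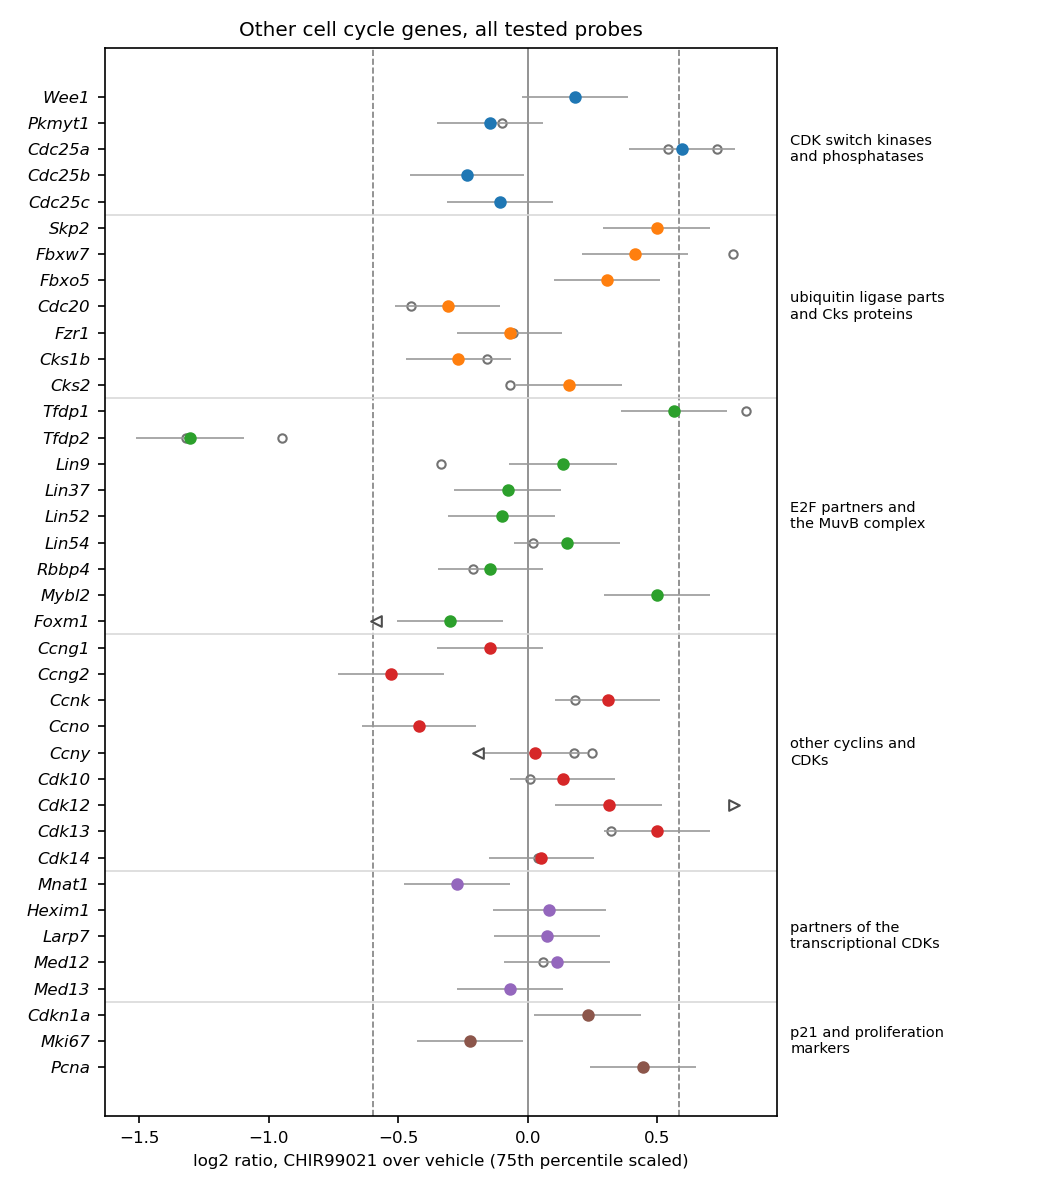
Log2 ratio of CHIR99021 over vehicle for 38 further cell cycle genes by list, with the same symbols as in the plot of cyclins, CDKs and E2Fs. The 3 Tfdp2 probes lie beyond the lower dashed line, while the Tfdp1 and Cdc25a probes lie on either side of the higher one.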

How the data were processed

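RNA of mDE6 cells from 1 culture condition each, vehicle and CHIR99021, was labelled with Cy3 and hybridised to Agilent mouse arrays; whether an array stands for 1 culture or several is not stated. Spots were quantified by the authors in Feature Extraction (version 10.7.1.1 per the file headers, 9.5.1.1 per the labels), who deposited the intensity of each spot after background subtraction and detrending, with no normalization between arrays. The methods name a human array, whereas the files carry a mouse design in mm9. The authors also deposited a table of normalized intensity, used as an alternative. Its median was 20.4 for both arrays, its sorted columns were equal within 1%, its scale is linear, its direction followed that of the scanner values, and its method is not given in the sources used here.

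Of 59305 non-control spots per array, 49.8% were well above background with vehicle and 48.3% with CHIR99021, and none was saturated. Outlier spots were dropped, the spots of each probe averaged, and a probe tested if it was well above background with vehicle, with CHIR99021 or with both. A probe well above background on only 1 array gave a limit, for which the dim array took the probe's own signal or, where higher, the lowest signal of a bright probe there (23.7 with vehicle, 26.3 with CHIR99021). Genes carry the names in the files; 74 of the 102 member probes had an accession in the RefSeq table of GRCm38.p6, all under the same symbol. With 1 array per condition there was no test, and the number of arrays limits the precision. The values were computed with Python 3.11.15, numpy 2.4.6, pandas 2.3.3, matplotlib 3.10.9 and limma 3.58.1 in R 4.3.3. The calls were tested on simulated data in which all probes shared 1 noise SD and were well above background on both arrays. Calls that rest on a limit and the wider spread at low signal were therefore not covered by it.

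Every member was to be named with its signals, with full values for those past the fold, for Ccnd1 and for genes whose probes disagreed past the fold, and from the other lists those past the fold, the Wnt targets, Mki67, Pcna and Cdkn1a. Skp2, Fbxw7, Cdc20, Foxm1, Mybl2, Tfdp1, Fbxo5, Wee1, Cks2, Fzr1, Cdc25c, Cks1b and Ccng2 were named after their values were seen. The members and lists were chosen with earlier results of these data known. Alternatives were other scalings (quantile, median, none, a percentile over probes bright on both arrays), normexp with an offset of 50, other filters on dim probes, other rules for genes with several probes, the earlier rows alone, up to row 192 of 384, uneven spots left out, and other Z-scores. One marker of the lists is not reported here.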

Additional observations from a re-analysis of the deposited data

How the results depend on the processing

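No paired analysis was possible because vehicle and CHIR99021 were each hybridised once. The median log2 ratio of the members, 0.07, was 0.017 with quantile normalization, 0.016 without scaling, 0.017 with the percentile over probes bright on both arrays, 0.0086 in the authors' table, 0.034 with the mean over a gene's probes, -0.010 with the probe of lowest ratio, 0.14 with that of highest ratio and 0.12 in the earlier rows, where 26 members remained. The median over all genes moved as well, from 0.033 to 0.0021, -0.020, -0.018, -0.00086, 0.030, 0.00050, 0.067 and 0.035 under the same settings in that order, and to 0.18 with no filter on dim probes. The 1 gene higher past the fold became 0 under quantile normalization, no scaling, the percentile over bright probes, the authors' table, normexp, the mean over probes and the probe of lowest ratio, and 2 with no filter on dim probes. The 3 genes lower past the fold became 6 with the probe of lowest ratio and 1 in the earlier rows, and lay between 2 and 4 otherwise. The 1 gene meeting the criteria became 2 with probes bright on both arrays or without uneven spots, 3 with a Z-score from the median and MAD, and 0 with the mean over probes, the probe of highest ratio or one mean and SD for all probes. In the earlier rows the count stayed at 1, but the gene was Rbl2 in place of Cdkn3. The ratio of E2f8 reversed to 0.68 with the mean over its probes, which takes in the limit of its uneven spot; the cause of the other shifts was not tested. Low signal limits Rbl2, whose CHIR99021 signal of 38.6 lies close to the lowest bright signal of that array, 26.3. Over the 7 scalings and corrections, 6 of 41 genes changed their side of 1, and over all settings 15 did.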
